A study of Mus musculus with 29 samples.

Results

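Contractile and mural genes were followed through 5 comparisons of lesion with naive cultures of adult mouse cortex. The genes were taken by symbol from a list of 10: Tagln, Tagln2, Acta2, Cnn1, Cnn2, Cnn3, Cald1, Tpm1, Tpm2 and Cspg4. They are linked to smooth muscle cells and pericytes, the mural cells of blood vessels, but not all are particular to these cells. Of these, 9 are among the 5826 genes of the authors' deposited table, and Cnn1 is not. A gene entered that table if its adjusted p was under 0.1 on any day, which was so for 30.5% of the 19085 genes tested per day. That each of the 9 genes passed at some day therefore follows from how they were chosen, and a gene outside the table either passed at no day or was not among the genes tested.

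Lesion cultures came from mice that received a conditioning lesion in vivo 24 hours before the cells were plated, and naive cultures from mice given none. All groups were wild-type C57/BL6 adult mice, and total RNA of primary cortical cultures labelled as neurons was sequenced at days 1, 2, 3, 5 and 7. Each day had 3 lesion libraries and 3 naive libraries, except day 7 with 3 lesion and 2 naive libraries. The values are log2 fold changes of lesion over naive, so positive values mean higher in lesion cultures, and the words rose and fell are kept for an adjusted p under 0.1. Nothing in the labels says whether the libraries of a group were separate cultures or animals, so the p-values may measure technical spread. No value per library was used here and the depth is unknown, so the precision of each fold change is given by a 95% interval from the error that its p-value implies.

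The cultures held RNA of several cell types. Of 10 neuron markers 7 are in the table, with rank numbers from 321 (Tubb3) to 11022 (Nefm), where low numbers belong to abundant genes. Fibroblast, endothelial, astrocyte and oligodendrocyte progenitor markers are in it as well. Ranks of fibroblast markers ran from 1202 (Mgp) to 15562 (Lum), and those of endothelial markers from 3760 (Esam) to 11823 (Slco1a4). Of 22 pericyte and mural markers 12 are in the table, Pdgfrb, Anpep, Cd248 and Tbx18 among them. Rgs5, Abcc9, Notch3, Vtn, Higd1b and Mcam are not in it. In RNA from whole cultures, fewer cells of a type and less RNA per cell cannot be told apart.

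Contractile cells shorten by sliding myosin along actin filaments. Smooth muscle actin (Acta2) forms the filament, tropomyosins (Tpm1, Tpm2) lie along it, and calponins (Cnn1 to Cnn3), transgelins (Tagln, Tagln2) and caldesmon (Cald1) bind to it and regulate it. Many of these genes are controlled by serum response factor, which binds DNA at the CArG box with coactivators of the myocardin family. Several of them are also active in fibroblasts and reactive cells, and Cspg4, which encodes the NG2 proteoglycan, is made by pericytes and by oligodendrocyte progenitors. In brain some of these genes, such as Acta2 and Tagln, are best known from the walls of blood vessels. Cnn3 and Tpm1 were abundant in these cultures, with rank numbers of 224 and 549.

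The Cnn2 and Acta2 promoters are shown because they hold the letters of a CArG box or of a close form of it. RefSeq promoter windows of build GRCm38.p6 were matched for 8 of the 9 genes, all but Tagln, in 9 windows, of which the 250 bases before the start of transcription were searched. Capitals mark the CArG box of Cnn2, and in Acta2 a pair of sites in which 1 of the 6 inner bases is G or C. The Cspg4 promoter, with neither form, is given for comparison.
Cnn2, chr10:79988350-79988599, plus strand: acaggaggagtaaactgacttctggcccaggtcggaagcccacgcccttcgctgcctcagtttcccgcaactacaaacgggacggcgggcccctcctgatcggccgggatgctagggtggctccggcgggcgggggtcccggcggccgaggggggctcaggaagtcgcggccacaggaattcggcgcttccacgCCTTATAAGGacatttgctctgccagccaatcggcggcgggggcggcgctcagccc
Acta2, chr19:34255374-34255623, minus strand: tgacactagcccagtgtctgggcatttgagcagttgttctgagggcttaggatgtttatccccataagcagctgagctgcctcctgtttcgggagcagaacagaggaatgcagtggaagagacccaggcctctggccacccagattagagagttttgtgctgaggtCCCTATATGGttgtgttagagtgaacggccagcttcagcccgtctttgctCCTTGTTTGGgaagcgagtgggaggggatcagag
Cspg4, chr9:56864854-56865103, plus strand: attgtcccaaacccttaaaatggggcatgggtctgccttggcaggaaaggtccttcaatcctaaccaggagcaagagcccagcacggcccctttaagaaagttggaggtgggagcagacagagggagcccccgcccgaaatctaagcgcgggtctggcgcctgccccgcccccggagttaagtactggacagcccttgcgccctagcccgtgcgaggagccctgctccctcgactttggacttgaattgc

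The Cnn2 site, CCTTATAAGG, lies at bases -56 to -47 from the start, and the Acta2 sites CCCTATATGG and CCTTGTTTGG lie at -84 to -75 and at -34 to -25. A CArG box reads the same on both strands. It was present in 482 of 32851 promoter windows (1.47%), and in 41 of 2167 windows of genes that rose at day 5 (1.89%). The close form, counted together with the exact one, was present in 8.59% of all windows and in 8.72% of windows of genes that rose at day 5. The motif GGAATG, known as MCAT and searched on both strands, was present in the Acta2, Tpm1 and Tagln2 windows and in 1 of 2 Cald1 windows, against 12.6% of all windows. These matches are letters in a window and were not measured as bound sites.

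Most of the calls were at day 5, with fewer at day 7. All 9 genes of the table rose there, which is 9 of the 10 on the list, while 12.8% of all genes tested rose and 11.2% fell at day 5; of the genes of the table, 41.8% rose. Their log2 fold changes ran from 0.78 to 4.67 with a median of 3.02, against a median of 0.17 over the genes of the authors' deposited table. At day 7, 4 of the 10 rose (Tagln, Cald1, Tpm2 and Cspg4) and none fell, with 3.11% of all genes rising and 0.985% falling, and 10.2% of the genes of the table rising. At day 2 Cnn3 fell and none rose (4.08% of all genes fell and 1.89% rose). At days 1 and 3 none of the 10 passed in the authors' voom and limma fit, where 0.0891% and 0.534% of all genes rose and 0.529% and 0.943% fell. Before adjustment, 2 of the 9 had a p under 0.05 at day 1 and 2 at day 3. Day 5 held the highest of the 5 values for each of the 9 genes, as it did for 91.1% of all genes that rose at day 5.

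**Figure D1:**
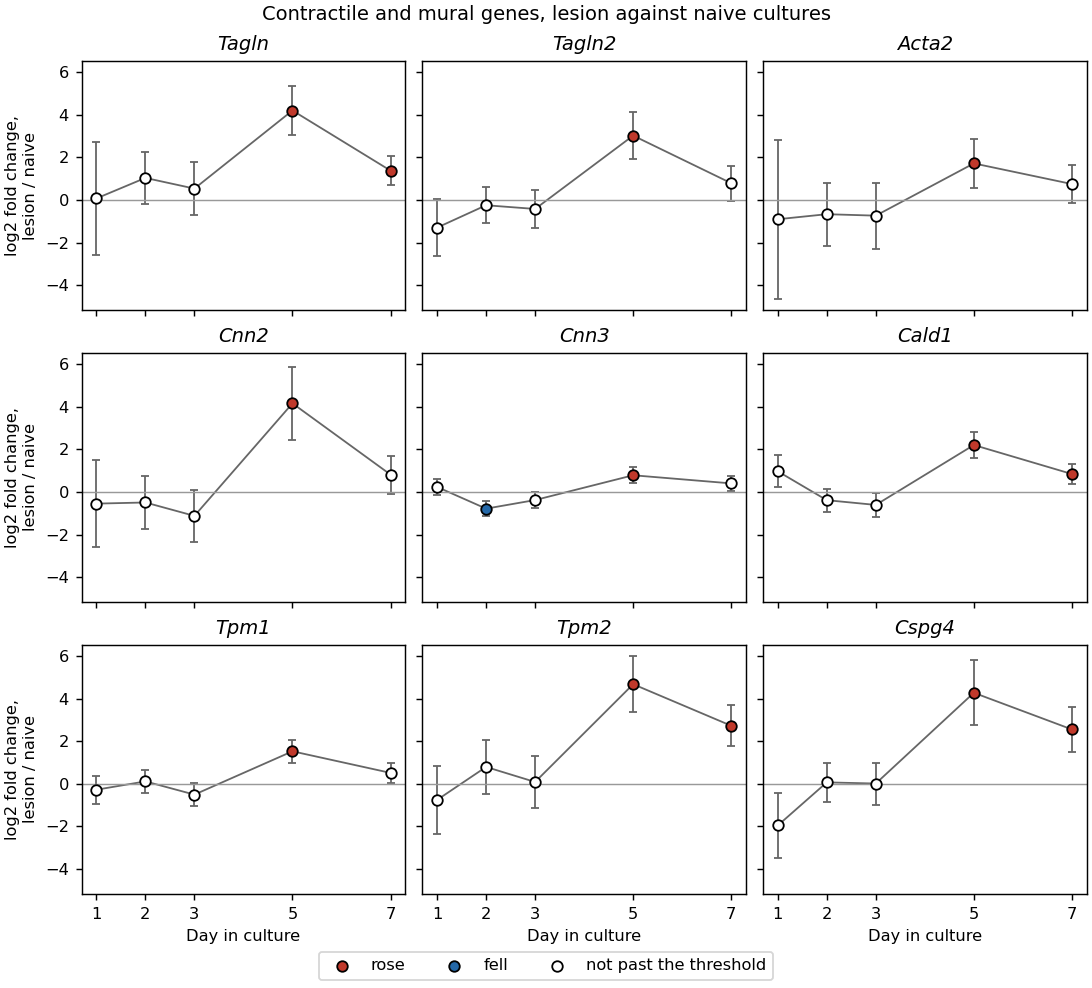
Log2 fold change of lesion over naive cultures against day in culture for the 9 genes, with 95% intervals from the implied errors as bars; red points rose, the blue point fell and white points did not pass an adjusted p of 0.1. The red points at day 5 lie between 0.78 and 4.67, and the only blue point is Cnn3 at day 2.

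The actin gene of smooth muscle changed less than most of the others. Acta2 (chr19:34241090-34255590, minus strand) had log2 fold changes of -0.90, -0.67 and -0.74 at days 1, 2 and 3 in the authors' deposited table, then 1.72 at day 5 and 0.75 at day 7. The first 3 values are below 0 and the last 2 above it, but the intervals of all days other than day 5 span 0. At day 5 Acta2 was 3.28-fold higher in lesion cultures (95% interval 1.47 to 7.32, adjusted p = 0.0377 in the authors' deposited table). It had the widest interval of the 9 genes at day 1, where it ran from -4.63 to 2.82 in log2 units.

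The other actin genes did not move with Acta2 as a family. Actg2, the enteric smooth muscle actin, had a log2 fold change of 7.19 at day 5 in the authors' deposited table (adjusted p = 0.000415), at a rank of 14317 out of 19085. The cytoplasmic actins Actb and Actg1 fell at day 2, by 1.00 and 0.87 in the authors' deposited table, and had 0.14 and -0.31 at day 5, neither past the threshold. Acta1 and Actc1 of striated muscle are outside the table.

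Both tropomyosin genes of the list rose at day 5 and differed in size. Tpm2 (chr4:43514711-43523765, minus strand) had log2 fold changes of -0.75, 0.79, 0.09, 4.67 and 2.73 at days 1, 2, 3, 5 and 7 in the authors' deposited table. Only the last 2 days are clear of 0: the fold was 25.5 at day 5 (95% interval 10.3 to 63.3) and 6.61 at day 7 (3.41 to 12.8). These are the highest values of the 9 genes at both days, with adjusted p-values of 6.64e-06 and 0.00106 in the authors' deposited table. Tpm1 (chr9:67022590-67049406, minus strand) had -0.28, 0.11, -0.50, 1.53 and 0.51 in the same order of days in the authors' deposited table. Its day 5 fold was 2.88 (95% interval 1.99 to 4.17). The non-muscle tropomyosin gene Tpm4, which is not on the list of 10, rose at day 5 with 1.92 in the authors' deposited table, and Tpm3 is outside it.

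Among transgelins, Tagln and Tagln2 rose at day 5 while the neuronal member of the family fell. Tagln, also called SM22 and an early marker of smooth muscle (chr9:45929619-45936058, minus strand), had log2 fold changes of 0.07, 1.03, 0.53, 4.20 and 1.38 at days 1, 2, 3, 5 and 7 in the authors' deposited table. It is above 0 at each of the 5 days, but at days 1, 2 and 3 its intervals span 0. The fold was 18.3 at day 5 (95% interval 8.18 to 41.1) and 2.60 at day 7 (1.63 to 4.15), with adjusted p-values of 5.92e-06 and 0.0231 in the authors' deposited table.

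Tagln2, the more widely expressed transgelin (chr1:172500047-172507380, plus strand), had -1.30, -0.25, -0.42, 3.02 and 0.79 at the same days in the authors' deposited table. It passed at day 5, where it was 8.11-fold higher in lesion cultures (95% interval 3.80 to 17.3), and at no other day. Tagln3, a transgelin of neurons and no member of the list, fell by 1.07 at day 5 in the authors' deposited table (adjusted p = 0.0169). Whether Tagln and Tagln2 differed from each other at a day was not tested, because the table gives no covariance between genes.

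The calponin genes split by size of change. Cnn2 (chr10:79988584-79996062, plus strand), whose promoter holds the CArG box, had -0.55, -0.50, -1.12, 4.15 and 0.81 at days 1, 2, 3, 5 and 7 in the authors' deposited table. Its day 5 fold was 17.8, with the widest day 5 interval in log2 units of the 9 genes (5.38 to 58.8 as folds). Cnn3, the most abundant of the 9 with a rank of 224 (chr3:121426497-121458207, plus strand), had 0.23, -0.78, -0.38, 0.78 and 0.40 in the authors' deposited table. It passed at 2 days in opposite directions: it was 1.72-fold lower in lesion cultures at day 2 and 1.72-fold higher at day 5. The authors' deposited table gives adjusted p-values of 0.0156 and 0.00424 for these days. Cnn1, the calponin of differentiated smooth muscle, is outside the table.

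Cald1, caldesmon (chr6:34598500-34775473, plus strand), had 0.97, -0.39, -0.61, 2.20 and 0.84 at days 1, 2, 3, 5 and 7 in the authors' deposited table. It had the highest day 1 value of the 9, with a p of 0.0124 before adjustment and 0.323 after it in the authors' deposited table. The fold was 4.59 at day 5 (95% interval 3.02 to 6.99) and 1.79 at day 7 (1.30 to 2.46), and Cald1 passed at both. Its day 5 adjusted p of 5.21e-06 in the authors' deposited table was the smallest of the 9 genes.

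Cspg4, the NG2 proteoglycan of the cell surface (chr9:56865033-56899870, plus strand), had the widest range over days. Its log2 fold changes were -1.95, 0.07, 0.01, 4.27 and 2.55 at days 1, 2, 3, 5 and 7 in the authors' deposited table. The day 1 value is the lowest of the 9 genes at any day; its unadjusted p was 0.0127 and the adjusted value 0.323 in the authors' deposited table. At days 2 and 3 the values lie near 0, with intervals of about 1 log2 unit to each side. At day 5 Cspg4 was 19.3-fold higher in lesion cultures (95% interval 6.70 to 55.7) and at day 7 5.87-fold higher (2.83 to 12.1), with adjusted p-values of 0.000199 and 0.00618 in the authors' deposited table.

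Reads of some of these genes could have been shared with other genes. Tagln overlaps Pcsk7 and the antisense gene Gm48529 in GENCODE M21, and 58.3% of its 50-base windows also occur, on either strand, in transcripts of other genes, chiefly Gm48529. For Cnn3, which overlaps Gm42928 and Gm42929, the share was 24.0%, and for the other 7 genes it was at most 0.565%. The main partners of Cnn3 were Gm42928, Gm4815 and Gm17936, of which only Gm42928 overlaps it. Cald1 overlaps the genes Gm13861, Npn2 and Gm14547 on the opposite strand, with no shared windows. Whether counting used strand is not given in the sources used here, nor is how reads that match several genes were counted. Reads in the shared windows of Tagln or Cnn3 can therefore not be told apart here from reads of these partners. Neither Pcsk7 nor Gm48529 is in the table, nor are Rnf214, Sidt2 and Pafah1b2, which lie next to Tagln. Beside Cspg4, Snx33 rose at day 5 with 3.75 and Lingo1 fell at day 2 by 3.12 in the authors' deposited table, while Odf3l1 and Imp3 are outside it.

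**Figure D2:**
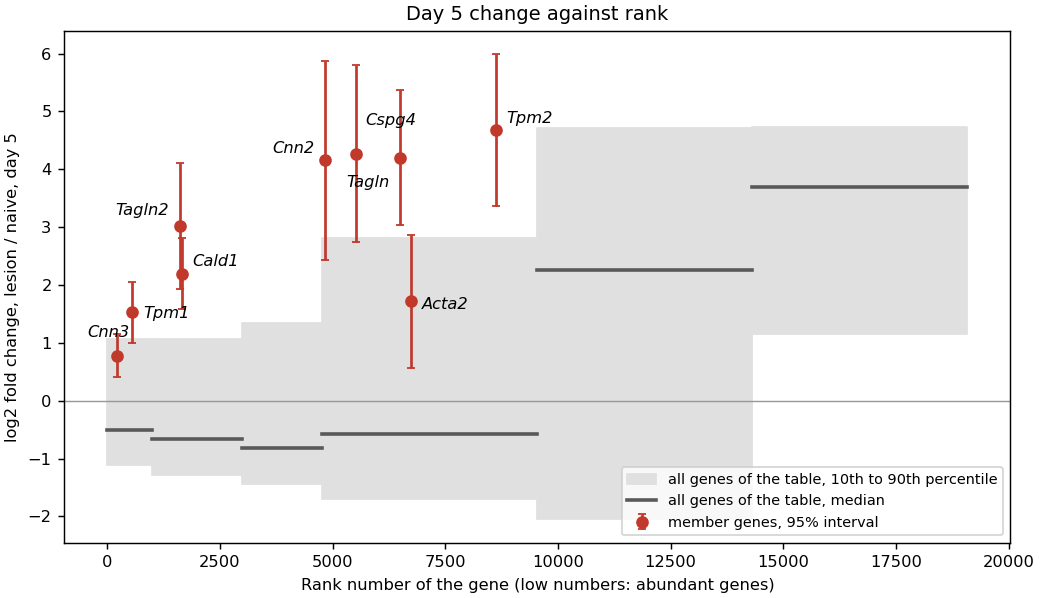
Log2 fold change of lesion over naive cultures at day 5 against the rank number of the gene. Red points are the 9 genes with 95% intervals, grey lines the median and grey bands the 10th to 90th percentile of all genes of the table in 6 ranges of rank; of the 9 points, only Cnn3 and Acta2 lie inside the band of their range.

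Size of change at day 5 was larger for the less abundant members. From Cnn3 at rank 224 to Tpm2 at rank 8624, Spearman's rho between rank number and day 5 log2 fold change was 0.72 (Pearson's r 0.72) over the 9 genes, which share all libraries. Over the 5826 genes of the table rho was 0.49. The table's median was -0.51, -0.66, -0.81 and -0.58 in successive ranges up to rank 9542, which hold all 9 genes. It was 2.27 in ranks 9543 to 14313 and 3.69 beyond them, where none of the 9 lies. A gene with a larger error needs a larger change to enter the table. The implied day 5 error was 0.19 for Cnn3 and 0.65 for Tpm2. The relation of rank to size of change is therefore not separate from how the genes were chosen. Whether the order by rank was particular to the contractile genes was not tested. In the range of ranks 1001 to 3000, which holds Tagln2 and Cald1, the table's median was -0.66 and 22.3% of its genes rose. In the range 4772 to 9542, which holds Tagln, Acta2, Cnn2, Tpm2 and Cspg4, the median was -0.58 and its 90th percentile 2.81. Tagln, Cnn2, Tpm2 and Cspg4 lay above that percentile and Acta2 below it.

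Fold changes differed between days for 8 of the 9 genes. An F test of heterogeneity (Cochran's statistic with the implied errors), adjusted over all genes tested, called 20.0% of them. It could be run on genes of the table alone, the others being set to a p of 1, and it called 65.5% of the table's genes. Adjusted p-values were 4.31e-05 for Cald1, 0.000179 for Cspg4, 0.000261 for Cnn3 and 0.000404 for Tpm2. They were 0.00131 for Tagln2, 0.00173 for Tpm1, 0.00403 for Cnn2 and 0.00767 for Tagln. Acta2, with 0.198, did not pass. The same values decided which genes are in the table, so these p-values do not stand apart from how the genes were chosen. Without day 5, 4 of the 9 passed (Cnn3, Cald1, Tpm2 and Cspg4), and Tagln had an adjusted p of 1.

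In pairs of days, day 5 was above days 1, 2 and 3 in each of the 9 genes. The tests of pairs, too, use the values that decided which genes are in the table. The difference from day 3 passed for all 9 (10.5% of all genes and 34.3% of the table's genes passed in this direction). That from day 2 passed for 8, without Acta2 (7.57% of all genes, 24.8% of the table). That from day 1 passed for 7, without Acta2 and Cnn3 (8.41% and 27.6%). For Tagln the day 5 value exceeded that of day 1 by 4.13 (95% interval 1.22 to 7.03, adjusted p = 0.0533), of day 2 by 3.16 (1.46 to 4.86) and of day 3 by 3.66 (1.96 to 5.37). For Cspg4 the excess was 6.22 over day 1 (4.08 to 8.37, adjusted p = 0.000312), 4.20 over day 2 (2.42 to 5.98) and 4.26 over day 3 (2.44 to 6.08).

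Day 7 was below day 5 in each of the 9 genes, and the difference passed for Tagln, Tagln2, Cnn2 and Cald1 (1.34% of all genes and 4.39% of the table's genes passed in this direction). Whether the genes differed from each other in this was not tested. Tagln was lower at day 7 than at day 5 by 2.82 in log2 units (95% interval of day 7 minus day 5, -4.17 to -1.47, adjusted p = 0.0308). For Cspg4 the difference of -1.72 had an interval from -3.57 to 0.14 and an adjusted p of 0.528, and for Tpm2 it was -1.95 (-3.57 to -0.33, adjusted p = 0.268). Day 7 was above day 1 in 8 of the 9 genes and above days 2 and 3 in all 9. Against day 1 the difference passed for Tpm2 and Cspg4 (0.718% of all genes, 2.35% of the table). Against day 2 it passed for Cnn3, Cald1 and Cspg4 (3.68% and 12.1%), and against day 3 for these and Tpm2 (2.88% and 9.42%). Tagln at day 7 passed against none of these 3 days, with a difference from day 2 of 0.34 (-1.07 to 1.75, adjusted p = 1).

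**Figure D3:**
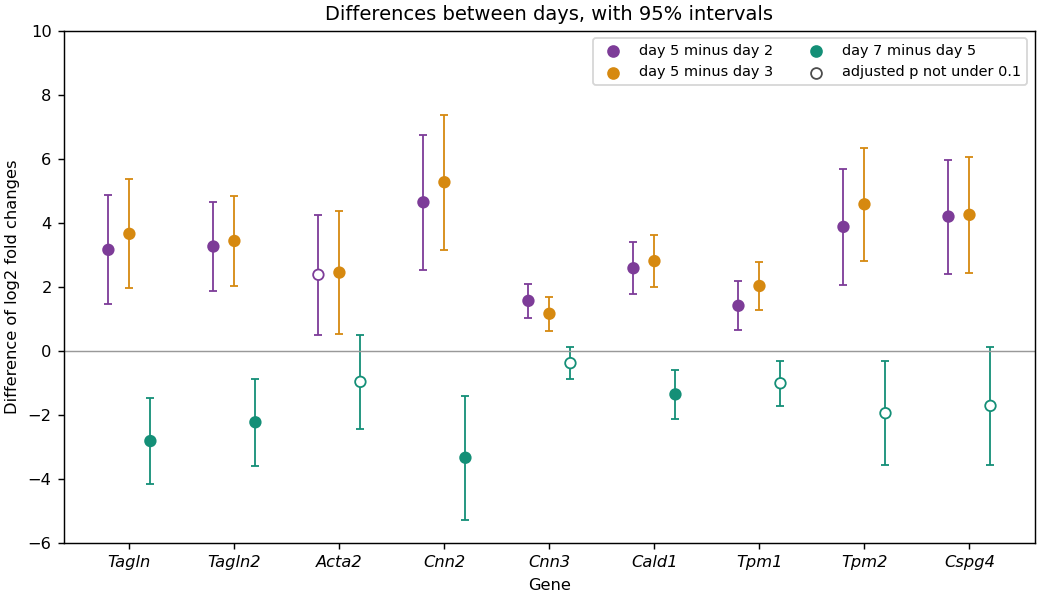
Difference between days in log2 fold change of lesion over naive cultures for each gene, with 95% intervals; filled points have an adjusted p under 0.1 and open points do not. Differences of day 5 from days 2 and 3 lie above 0 for every gene, and those of day 7 from day 5 lie below 0 with 4 of 9 filled.

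Profiles over the 5 days were compared in pairs. Among the 36 pairs of the 9 genes, Pearson's r over the 5 days ran from 0.59 for Cspg4 and Cnn3 to 0.99 for Cspg4 and Tpm2, given as a description, as all pairs share their libraries and a highest value at day 5. Cnn3 had 0.61 with Tagln and 0.93 with Cald1. Measured by the root mean square difference of the 5 log2 fold changes, Cspg4 and Tpm2 were 0.66 apart, with 14 genes of the table closer to Cspg4 than Tpm2. Tagln and Tpm2 were 0.77 apart, and Tagln and Cspg4 1.16 apart, with 394 genes closer to Tagln than Cspg4.

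The genes nearest to Tagln by that measure were Lox (0.25 apart), Col5a2, Prrx2, Timp3 and Tnfrsf11b (0.44), with predicted genes and ranks above 14313 left out. Lox, which encodes the collagen cross-linking enzyme lysyl oxidase, had 0.01, 1.17, 0.36, 4.61 and 1.65 at days 1, 2, 3, 5 and 7 in the authors' deposited table. Near to Cspg4 were Tmc6 (0.46 apart), Dram1, Tlr4 and Bnc2 (0.56). Tmc6, a transmembrane channel-like gene, had -1.54, 0.75, 0.65, 4.36 and 2.41 at these days in the authors' deposited table. With Pearson's correlation as the measure, 1 of the 5 neighbours of Tagln and 0 of those of Cspg4 were named again.

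Other genes of the contractile apparatus moved with the 9 at day 5. Of 26 smooth muscle contractile and associated genes 16 rose and 1 fell at day 5; without the genes of the list of 10 it was 11 and 1 of 20. Over all genes tested, 12.8% rose and 11.2% fell at this day. With ranks up to 9542 alone, 10 of the 26 rose, and at an adjusted p under 0.05 none fell. Those 10 include Acta2, Tagln, Cald1, Tpm1 and Tpm2 of the list, and the others are Flna, Csrp1, Vcl, Csrp2 and Smtn. At day 7, 6 of the 26 rose and none fell, with 3.11% of all genes rising. The 17 in the table had a median of 2.36 at day 5. Myl9, the regulatory myosin light chain of smooth muscle, rose at day 5 with 3.46 (adjusted p = 0.00427), and the adhesion gene Vcl rose at days 5 and 7 with 2.53 and 1.20, in the authors' deposited table. Smtn, smoothelin, had 2.36 and Csrp2, a LIM-domain protein of muscle, 2.27 at day 5 in the authors' deposited table, both past the threshold. Myh11, the heavy chain of smooth muscle myosin, rose at day 5 with 2.23 (adjusted p = 0.0687), and Des, desmin, with 3.45 (adjusted p = 0.0834), each close to the limit of 0.1 in the authors' deposited table. Ppp1r12a, a subunit of myosin phosphatase, fell by 0.99 at day 5 in the authors' deposited table.

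Myosin light chains and regulators of serum response factor were mixed. Of 7 myosin light chain and kinase genes 3 rose (Myl6, Myl9 and Myl12a) and Myl12b fell at day 5. Of 11 regulators 5 rose at day 5 (Mkl1, Myocd, Tgfb1i1, Fhl2 and Klf4) and Fhl1 fell; Srf itself is outside the table. Myocd, the coactivator myocardin, had 4.29 at day 5 (adjusted p = 0.0408) at a rank of 14751, and Mkl1, a related coactivator, 1.69 (0.0623), in the authors' deposited table. Of 18 known targets 14 rose and 1 (Fos) fell at day 5, and 7 rose at day 7. Beside these 3 lists, 12.8% of all genes rose and 11.2% fell at day 5, and 3.11% rose at day 7. Lists overlap, so their counts are not separate: Tgfb1i1 and Fhl2 are both regulators and targets. Vcl and Flna are on the lists of targets and of contractile genes. Ctgf rose with 2.90 and Cyr61 with 1.96 at day 5, and Zyx, zyxin of focal adhesions, rose with 2.13 at day 5 and 1.81 at day 7, in the authors' deposited table.

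Partners of the NG2 proteoglycan and growth factor signals were followed as well. Of 17 NG2 binding partners and proteases 8 rose and 1 fell (Grip1) at day 5, and 7 rose at day 7, against 12.8%, 11.2% and 3.11% of all genes. Collagen VI, to which NG2 binds, rose in its 3 listed chains: Col6a1, Col6a2 and Col6a3 had 3.90, 7.30 and 5.45 at day 5 in the authors' deposited table. Fgf2 had 5.54 at day 5 and 5.41 at day 7 in the authors' deposited table, with a rank of 14268. Of 10 core proteins of chondroitin sulfate proteoglycans 4 rose at day 5 (Cspg4, Bgn, Dcn and Cd44) and 2 fell (Cspg5 and Ncan), of which Cspg5 also passed 0.05.

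Pdgfrb, the PDGF receptor of pericytes, rose at days 5 and 7 with 3.19 (adjusted p = 0.0358) and 2.12 (0.0966) in the authors' deposited table. Pdgfra, the receptor of fibroblasts and oligodendrocyte progenitors, rose at day 5 with 2.60, and the ligand gene Pdgfc at day 7 with 5.56, in the authors' deposited table. Pdgfa, Pdgfb and Pdgfd are outside the table. TGF-beta genes, known to induce contractile genes, gave 8 risen of 21 at day 5 and 4 at day 7, with none fallen at these days, against 12.8% and 3.11% of all genes risen. Tgfb1 had 2.11 and 1.93, and Tgfb3 2.30 and 4.08, at days 5 and 7 in the authors' deposited table, and all 4 values passed.

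Markers of several cell types moved at day 5, in different directions. Over all genes tested, 12.8% rose and 11.2% fell. Among markers of fibroblasts and meninges 13 of 17 rose and none fell, with a median of 4.21 over the 14 in the table; 8 rose with ranks up to 9542 alone. Pericyte and mural markers gave 11 risen and 1 fallen (Rgs4) of 22, with Cd248 at 5.54 and Foxc1 at 5.16 in the authors' deposited table. The 11 came to 7 at an adjusted p under 0.05 and to 4 with ranks up to 9542 alone. Astrocyte markers gave 4 risen of 10 (2 at an adjusted p under 0.05), and neuron markers 5 fallen of 10 and none risen. Endothelial markers gave 1 risen of 10 (Esam) and none fallen. At day 2, 7 of the 10 had fallen (4 at an adjusted p under 0.05), when 4.08% of all genes tested fell. Oligodendrocyte progenitor markers, among which Cspg4 is counted, gave 2 risen (Cspg4 and Pdgfra) and 3 fallen of 17 at day 5 (1 fallen at an adjusted p under 0.05). Olig2 (rank 10715) and Sox10 (rank 7889), which mark that lineage, had 0.93 and -0.55 at day 5 in the authors' deposited table, neither past the threshold. Both had fallen at day 2, with -8.29 and -3.80, and at day 3, with -7.97 and -3.50. At day 7, 2 of the 17 rose (Cspg4, and Vcan with 2.72) and none fell. Microglia and macrophage markers gave 1 risen of 10. The table gives no summed level of any marker list per group, and the part of these cell types in the changes of contractile genes was not tested.

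**Figure D4:**
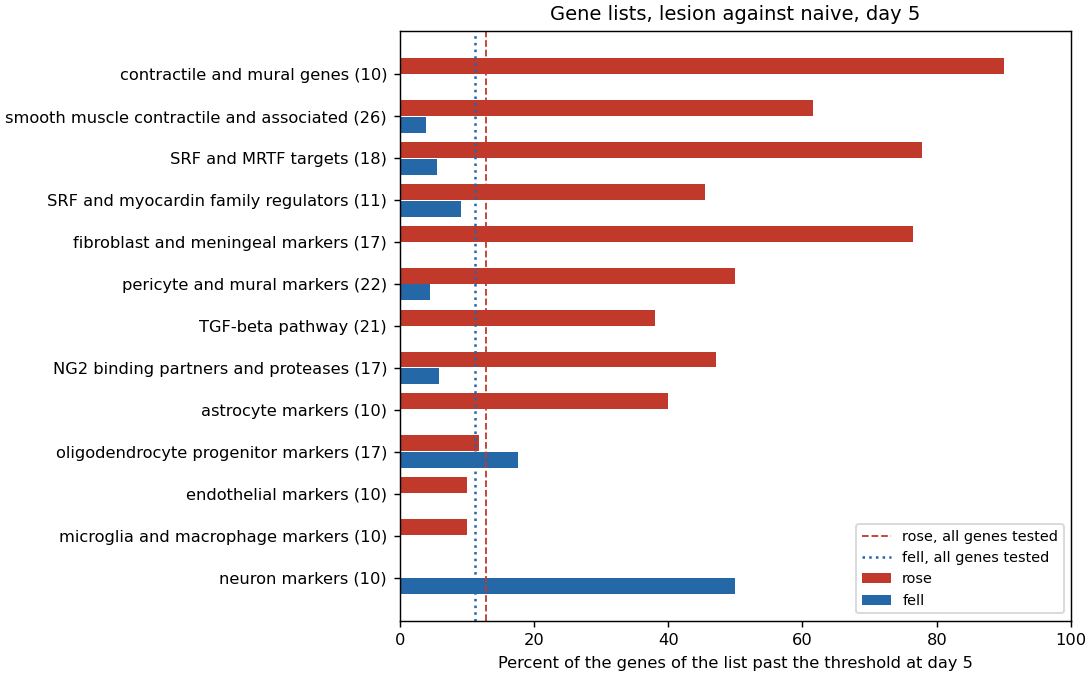
Share of the genes of each list that rose (red) or fell (blue) in lesion against naive cultures at day 5, with the number of genes on the list in brackets; the dashed and dotted lines give the shares over all genes tested, 12.8% and 11.2%. The contractile and mural genes have 9 of 10 risen, and neuron markers 5 of 10 fallen.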

How the data were processed

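RNA of 29 libraries (15 lesion, 14 naive) was sequenced after an ultra-low input library preparation, per the labels' protocols. The submitters' processing notes name STAR and mm10. How reads were counted, filtered and scaled is not given in the sources used here. The authors' deposited table holds log2 fold changes, p-values, adjusted p-values and a rank number per gene, made with voom and limma, per the file headers and name. The rank has no explanation in the table and is read as abundance, with low numbers for abundant genes; how it treats gene length is unknown. No per-library values were used, and no test per gene was refitted.

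Rebuilding the Benjamini-Hochberg adjustment gave 19085 genes tested per day (largest relative deviation 9.15e-13). Standard errors were worked back from the deposited log2 fold changes and p-values with the t distribution on 37 degrees of freedom, the number at which they depended least on the size of p over 2893 genes with ranks up to 9542. Differences between days used Cochran's heterogeneity (an F test) and a t statistic for each of 10 pairs of days, on every gene of the table, adjusted over 19085 genes with genes outside it set to a p of 1. Lists (18 beside the 10 genes) are counted with no set test; 3 genes were matched by synonym. The members and lists were chosen with earlier results of these data known.

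Named genes are those of the list of 10, the 5 nearest in profile to Tagln and Cspg4, members of the lists and chromosomal neighbours; those shown from each list were picked partly after their values were seen, and 1 gene near to Cspg4 is not reported here. Positions come from GENCODE M21 (GRCm38, the assembly of mm10), shared sequence from its transcripts in windows of 50 bases, and promoters from RefSeq. Python 3.11.15, scipy 1.17.1, numpy 2.4.6 and pandas 2.3.3 were used.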

Additional observations from a re-analysis of the deposited data

Results flagged for a closer look

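Effects that differed between days, by the test of the difference itself, were as follows. The same values decided which genes are in the deposited table, so these differences do not stand apart from how the genes were chosen. Of the table's genes, 65.5% passed over the 5 days together. Day 5 passed above an earlier day for 24.8% to 34.3% of them, and day 7 for 2.35% to 12.1%. Day 7 passed below day 5 for 4.39%. For Tagln the log2 fold change at day 5 exceeded those of days 1, 2, 3 and 7 by 4.13, 3.16, 3.66 and 2.82. For Cspg4 day 5 exceeded days 1, 2 and 3 by 6.22, 4.20 and 4.26, and day 7 exceeded them by 4.51, 2.48 and 2.54. Over the 5 days together, adjusted p-values were 0.00131 for Tagln2, 0.00403 for Cnn2, 0.000261 for Cnn3, 4.31e-05 for Cald1, 0.00173 for Tpm1 and 0.000404 for Tpm2.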

How the results depend on the processing

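The 9 genes that rose at day 5 were also 9 at an adjusted p under 0.05; Acta2 (adjusted p = 0.0377) did not pass 0.01. With Bonferroni adjustment 6 remained, without Acta2, Cnn2 and Cnn3, and with a log2 change of at least 1 it was 8, without Cnn3. Risen genes at day 7, 4 in all, came to 2 at an adjusted p under 0.01 (Tpm2 and Cspg4) and to 1 with Bonferroni adjustment within the day (Tpm2). Of the 4 calls of Tagln and Cspg4 (both at days 5 and 7), 2 passed Bonferroni, those of day 5. The fall of Cnn3 at day 2 did not pass 0.01, Bonferroni or a log2 change of at least 1 in size, which left 0 fallen. Without day 5, 1 of 2 (Cspg4) and 4 of the 9 genes differed between days; other degrees of freedom (19), a normal distribution and the loss of any other day left 8 of 9. Adjusting over the table's genes gave 9, Acta2 included. Of 180 list counts, 16 moved by over 1.5 times at an adjusted p under 0.05 and 13 with ranks up to 9542. The 5 genes nearest to Cspg4 shared 1 with those found among ranks up to 9542, and all 5 of Tagln were the same.

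No paired analysis was possible because the deposited table gives comparisons and no values per library; leaving out each replicate could not be run for the same reason. Depth per library is unknown here, which limits what can be said of weakly expressed genes.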
